A study of Mus musculus with 48 samples.

Results

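Colon RNA of mice that lack *Bmal1* in the intestinal epithelium was compared between late subjective night (circadian time 21, CT21) and late subjective day (CT9). All genes counted in these mice were compared, in 8 of the 48 mice of the series, 4 at each time. The *Bmal1*iec-/- mice carried a floxed *Bmal1* gene and Cre recombinase driven by the Villin promoter, which is active in epithelial cells of the intestine and not in muscle, stroma, nerves or immune cells. The controls were littermates with the same floxed gene without Cre (*Bmal1*fl/fl), with 4 mice at each time. All were adult males on a C57BL/6J background that were housed singly with a running wheel, fed ad libitum, and killed in constant darkness after a light-dark cycle. The comparison shows which genes of the colon still differed between the late night and the late day when the epithelial clock gene was deleted.

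In the mammalian clock, BMAL1 and CLOCK bind E-box sequences and switch on the *Per*, *Cry* and *Nr1d* genes, whose products then repress BMAL1 and CLOCK or the *Bmal1* gene itself. Downstream factors of the PAR bZIP family (DBP, TEF and HLF) bind D-boxes, and NFIL3 represses at the same sites. Tissues of a living mouse also receive daily signals from feeding, body temperature and hormones. In the colon epithelium, stem and progenitor cells at the crypt base divide throughout life, so whole colon tissue always holds cells in cycle.

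Between 3144997 and 4280587 reads were counted on genes in each of the 8 mice, so that 1 CPM (counts scaled to a total of 1000000 reads, the unit of all levels given here) stood for 3.14 to 4.28 reads. The first principal component of the 8 mice, with 29.1% of the variance, did not separate the times fully. CT21 replicates 1, 3 and 4 had scores of 26.52, 22.64 and 27.77, and CT9 replicates 1, 2 and 4 had scores of -26.44, -45.64 and -6.08. CT21 replicate 2, at -3.54, and CT9 replicate 3, at 4.76, lay between them, and results were also computed without each mouse. Mouse numbers in the labels were lower at CT9 than at CT21 and did not overlap. Nothing in the labels says whether these numbers mark cohorts, and any cohort cannot be told apart from the circadian time.

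Of the 16 lists of cell type and region markers, none had a member that passed the thresholds used below in *Bmal1*iec-/- mice. The defining markers of epithelium, smooth muscle and fibroblasts were found in every mouse, and their summed levels overlapped between the times, at 16935 to 19583 CPM for epithelium at CT21 and 16692 to 19594 CPM at CT9. The sum over anterior *Hox* genes, which mark position along the colon, did not overlap, with 172 to 200 CPM at CT21 and 204 to 287 CPM at CT9, and in control mice it was likewise 182 to 209 CPM against 227 to 248.7 CPM. The sum over distal colon genes, of which 4 of 8 were tested, overlapped, with 15.6 to 22.4 CPM at CT21 and 19.0 to 26.0 CPM at CT9. All 4 had a negative log2 fold change, and the median was -0.20 in *Bmal1*iec-/- mice and -0.20 in control mice. The sum over genes typical of small intestine was 21.7 to 30.9 CPM at CT21 and 33.4 to 47.3 CPM at CT9. In control mice this sum was 57.3 to 68.5 CPM against 99.9 to 138.6 CPM, also without overlap. Only 6 of the 10 markers were tested and summed, and in *Bmal1*iec-/- mice *Alpi* alone had means of 13.6 CPM at CT21 and 21.7 CPM at CT9. The median log2 fold change of the 6 was -0.87 in *Bmal1*iec-/- mice. In control mice it was -0.20, and 2 of the 6 passed the thresholds as lower there. T cell markers summed to 17.7 to 23.6 CPM at CT21 and 22.7 to 30.0 CPM at CT9. The part of these sums in the results given below was not tested. Among the lists of tissues that could have been collected along, 5 of 10 pancreas markers, 3 of 10 skeletal muscle markers and 2 of 10 squamous epithelium markers had 0 counts in all 8 mice. The 1 pancreas marker tested, *Cela1*, had 46.8 to 56.6 CPM at CT21 and 42.5 to 55.2 CPM at CT9. Of 8 adipocyte markers, 0 were absent from all mice, and they summed to 139 to 246 CPM at CT21 and 170 to 243 CPM at CT9. In whole tissue, fewer cells of a type and less RNA per cell cannot be told apart.

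The deleted gene itself, listed as *Arntl* (chromosome 7, 113207465 to 113314126, GRCm38), did not differ between the times in *Bmal1*iec-/- mice beyond the test's threshold. Its levels were 34.8, 33.5, 36.8 and 39.5 CPM at CT21 and 22.5, 27.9, 27.1 and 40.8 CPM at CT9. The groups overlapped because of CT9 replicate 4, and the log2 fold change of CT21 over CT9 was 0.30 ± 0.16 (SE, n = 4 mice per time; edgeR adjusted p = 0.257). Each SE given with a log2 fold change comes from the edgeR fit over 46 mice, not from the mice compared alone. The n beside it counts the mice compared at each time. In control mice it had 60.0 to 73.7 CPM at CT21 and 4.15 to 9.25 CPM at CT9, a log2 fold change of 3.23. The difference between the genotypes, -2.93 with a 95% interval from -3.42 to -2.44, had an adjusted p of 3.35e-11 in edgeR. The gene's count takes in all of its exons and all cell types of the colon, so transcript outside the deletion or outside the epithelium is counted too.

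A gene was called different when its adjusted p was under 0.05 and its fold change over 1.5. Of 15073 genes tested, 483 (3.20%) were called between CT21 and CT9 in *Bmal1*iec-/- mice, 173 (1.15%) higher and 310 (2.06%) lower at CT21. The smallest p among genes lower at CT21 belonged to the clock genes *Nr1d2*, *Nr1d1* and *Dbp*, and leaving out numbered gene models, among genes higher at CT21 to *Slc1a1*, *Mogat2* and *Chst11*. In control mice 965 genes (6.40%) were called, 2.79% of those tested higher and 3.61% lower. Without CT21 replicate 2 or CT9 replicate 3, the mice between the groups on the first component, 804 and 793 genes were called. Without CT21 replicates 1 or 4 or CT9 replicate 2, 245, 255 and 231 were called, and a fit to the 8 mice alone called 37.

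Among genes lower at CT21, those with the smallest p were in the clock. Of 29 genes in a list of clock and clock-controlled genes, 27 were tested. At CT21 10 were called lower and 0 higher, where 2.06% of all genes tested were called lower. Of the 27, 9 were lower without overlap between the mice of both times, as were 3.24% of all genes tested. The median log2 fold change of the list was -0.14, against -0.01 over all genes tested. *Nr1d1* and *Nr1d2* encode the nuclear receptors REV-ERB alpha and beta, which repress *Bmal1*. *Nr1d1* (chromosome 11, 98767932 to 98775333) had 2.19, 2.41, 1.60 and 1.04 CPM at CT21 and 53.4, 65.1, 38.4 and 15.4 CPM at CT9. Every mouse at CT21 lay below every mouse at CT9, by a log2 fold change of -4.54 ± 0.37 (SE, n = 4 mice per time; edgeR adjusted p = 8.13e-12), which is a 23.3-fold lower level. *Nr1d2* (chromosome 14, 18204054 to 18239127) had 8.52, 9.66, 8.95 and 7.28 CPM at CT21 and 62.4, 61.8, 59.6 and 41.9 CPM at CT9. The CT21 mice were close together and far below the CT9 mice, with a log2 fold change of -2.72 ± 0.21 (SE, n = 4 mice per time; edgeR adjusted p = 5.39e-12).

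The PAR bZIP factors, activators that bind D-boxes, were all lower at CT21. *Dbp* (chromosome 7, 45705088 to 45710203) had 4.38, 4.02, 5.76 and 4.68 CPM at CT21 and 36.7, 49.8, 30.0 and 16.3 CPM at CT9. *Hlf* had 10.5, 7.24, 9.27 and 8.06 CPM at CT21 and 32.0, 32.1, 29.8 and 22.5 CPM at CT9. *Tef* (chromosome 15, 81802421 to 81826863) had 60.6, 55.0, 50.2 and 56.4 CPM at CT21 and 124, 143, 106 and 99.5 CPM at CT9. None of these 3 genes overlapped between the times, and CT9 replicate 4 had the lowest CT9 level of each. The log2 fold changes were -2.82 ± 0.28 for *Dbp*, -1.73 ± 0.20 for *Hlf* and -1.08 ± 0.13 for *Tef* (SE, n = 4 mice per time), with an adjusted p of 3.05e-07 in edgeR for the latter pair. *Dbp* had the largest and *Tef* the smallest fold change of the 3.

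Among repressors, *Ciart*, whose product inhibits CLOCK and BMAL1, had 0.974, 1.61, 1.28 and 1.04 CPM at CT21 and 10.2, 15.0, 10.6 and 3.99 CPM at CT9, a log2 fold change of -2.996 ± 0.355 (SE, n = 4 mice per time). *Per3* had 18.5, 14.2, 7.99 and 16.4 CPM at CT21 and 42.0, 45.3, 33.9 and 35.9 CPM at CT9, and its log2 value fell by 1.43. *Bhlhe41*, which encodes the repressor DEC2, had 0.536 to 1.92 CPM at CT21 and 3.42 to 7.89 CPM at CT9, and its log2 value fell by 2.32. All 3 were lower in every CT21 mouse than in any CT9 mouse. *Per1* had 33.1, 6.44, 19.8 and 24.2 CPM at CT21 and 60.8, 52.5, 45.4 and 26.8 CPM at CT9, so the groups overlapped. Its log2 value fell by 1.14 (edgeR adjusted p = 0.036), and the call was lost without any one of CT21 replicates 2, 3 and 4 and CT9 replicates 1 and 2. *Tspan4*, a tetraspanin gene under clock control, had 8.04, 6.71, 10.2 and 7.02 CPM at CT21 and 16.01, 17.1, 17.1 and 6.84 CPM at CT9. CT9 replicate 4 lay among the CT21 mice, and the log2 fold change of -0.85 ± 0.23 (SE, n = 4 mice per time) lost its call without CT21 replicates 1 or 4 or CT9 replicates 1 or 2. The other 8 clock genes called kept their calls without each mouse in turn.

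**Figure D1:**
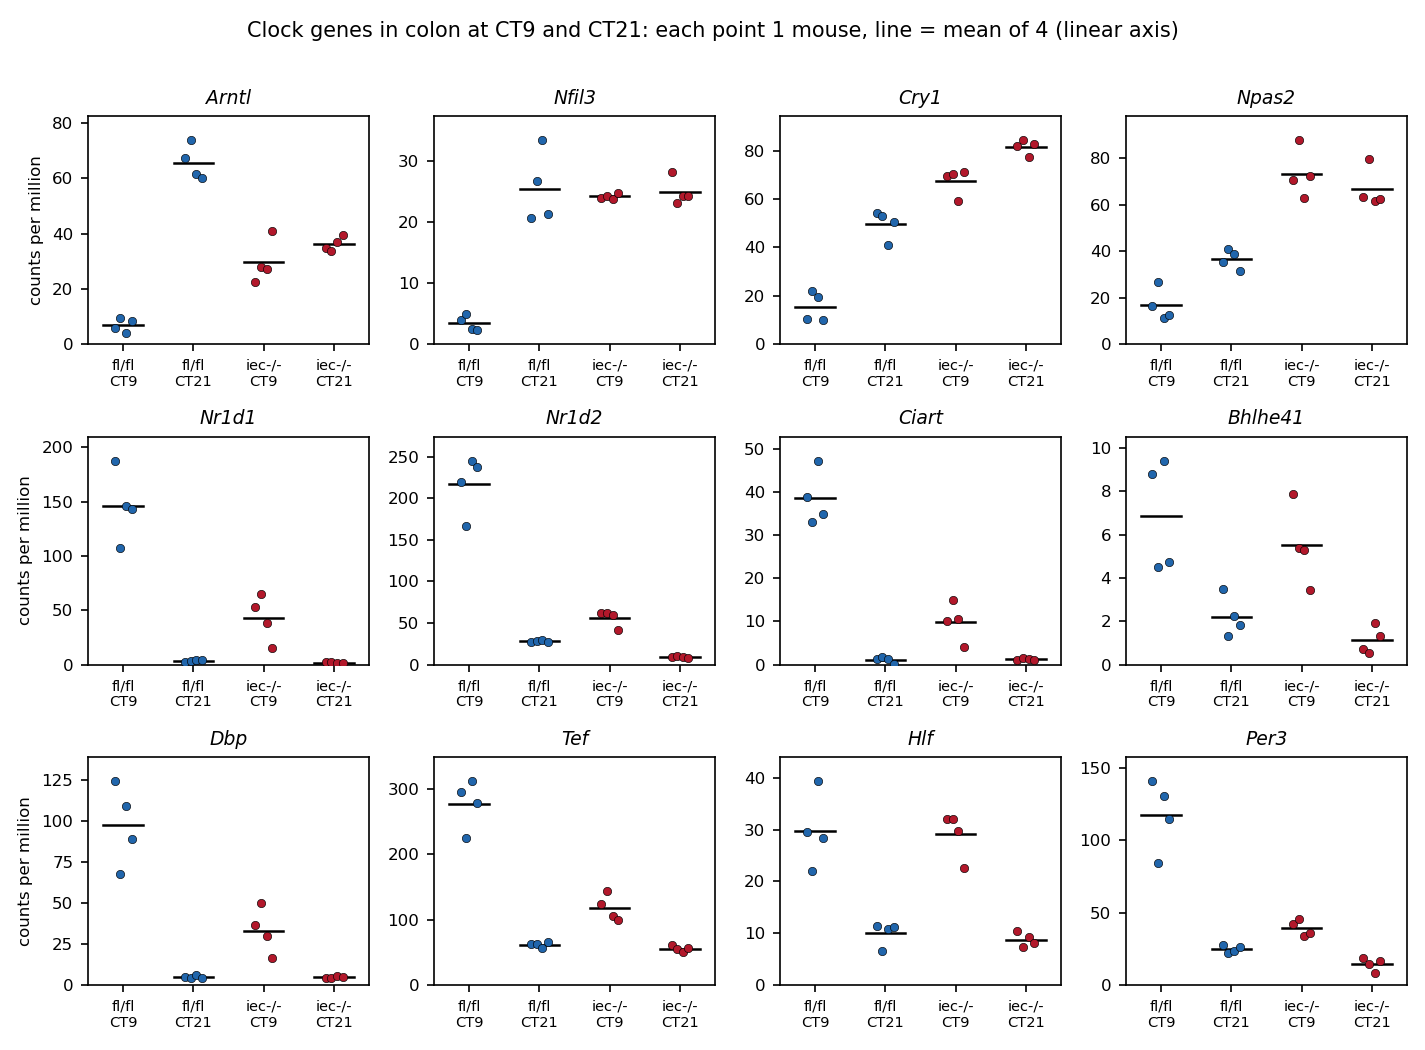
Levels of 12 clock genes in CPM (linear axis from 0) in each mouse (points) at CT9 and CT21, with the mean of 4 mice as a line, in *Bmal1*fl/fl (blue) and *Bmal1*iec-/- mice (red). *Nr1d1*, *Nr1d2*, *Ciart*, *Bhlhe41*, *Dbp*, *Tef*, *Hlf* and *Per3* were lower at CT21 in every *Bmal1*iec-/- mouse, whereas *Arntl*, *Nfil3*, *Cry1* and *Npas2* differed between the times mainly in *Bmal1*fl/fl mice.

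Promoters of 3 of these genes are given to show the clock motifs they hold, from 250 bases before to 50 bases after the start site in RefSeq (GRCm38.p6), with motifs in capitals. The E-box was searched as CACGTG and the D-box as TTATGTAA or TTATGCAA, on both strands. *Tef* (chr15:81802423-81802722, plus strand) held an E-box, *Ciart* (chr3:95882179-95882478, minus strand) held 3, and *Per3* (chr4:151044616-151044915, minus strand) held 2 D-boxes.
Tef: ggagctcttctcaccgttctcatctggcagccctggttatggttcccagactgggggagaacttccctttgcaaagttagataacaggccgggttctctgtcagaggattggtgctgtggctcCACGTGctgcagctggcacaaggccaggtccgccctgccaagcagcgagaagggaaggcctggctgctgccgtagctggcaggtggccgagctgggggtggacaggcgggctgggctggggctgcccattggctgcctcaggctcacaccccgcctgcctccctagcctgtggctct
Ciart: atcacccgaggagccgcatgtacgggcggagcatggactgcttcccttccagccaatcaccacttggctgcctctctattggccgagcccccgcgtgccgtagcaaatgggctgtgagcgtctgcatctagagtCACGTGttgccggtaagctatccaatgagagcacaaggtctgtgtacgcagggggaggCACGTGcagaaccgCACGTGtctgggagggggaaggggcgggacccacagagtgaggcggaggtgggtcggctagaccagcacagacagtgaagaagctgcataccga
Per3: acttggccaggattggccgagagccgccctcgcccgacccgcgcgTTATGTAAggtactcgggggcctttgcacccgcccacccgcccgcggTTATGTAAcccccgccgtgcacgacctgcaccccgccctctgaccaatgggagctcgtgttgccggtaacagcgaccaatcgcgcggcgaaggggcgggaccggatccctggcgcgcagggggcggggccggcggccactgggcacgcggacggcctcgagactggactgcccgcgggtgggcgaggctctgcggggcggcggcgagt
Of the 10 called clock genes, 5 (*Bhlhe41*, *Ciart*, *Per1*, *Tef* and *Tspan4*) held an E-box, as did 8.09% of all 27025 promoters in the table and 11.3% of those of genes tested, and 2 (*Per1* and *Per3*) held a D-box, as did 1.98% and 1.38%. Of the 21 tested members of the clock list found in the table, called or not, 6 held an E-box and 2 a D-box. Among all genes called in *Bmal1*iec-/- mice, promoters were found for 112 of 173 higher and 237 of 310 lower genes. The E-box was in 16.1% of the former and 8.86% of the latter, and the D-box in 0% and 3.8%. No motif for the heat shock factor (GAANNTTC), the glucocorticoid receptor (ACANNNTGT) or CREB (TGACGTCA) was in more than 7.14% of either set, and the ROR element core (TAGGTCA) was in at most 2.95%. In the same order these 4 motifs were in 9.04%, 7.90%, 2.03% and 2.97% of all promoters and in 7.04%, 5.52%, 3.42% and 2.32% of those of genes tested. A match is a description of letters in the window.

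The other clock genes tested did not pass the thresholds. *Nfil3* had 28.2, 23.1, 24.3 and 24.2 CPM at CT21 and 23.9, 24.3, 23.8 and 24.8 CPM at CT9, a log2 fold change of 0.05 ± 0.16 (SE, n = 4 mice per time). *Cry1* had 82.1, 84.2, 77.4 and 82.7 CPM at CT21 and 69.4, 70.2, 59.3 and 71.0 CPM at CT9, and *Npas2*, a partner of BMAL1, had 61.4 to 79.7 CPM at CT21 and 62.7 to 87.6 CPM at CT9. In *Bmal1*fl/fl mice these 3 genes were higher at CT21, by log2 fold changes of 2.87 for *Nfil3*, 1.67 for *Cry1* and 1.11 for *Npas2*. The genotypes differed for each, by -2.83 (95% interval -3.37 to -2.29) for *Nfil3*, -1.39 (-1.82 to -0.96) for *Cry1* and -1.24 (-1.67 to -0.81) for *Npas2*. All 3 differences, like those of *Arntl* and *Tef*, had an adjusted p under 0.05 in edgeR, which 0.139% of all genes tested had. *Por*, a reductase gene under clock control, had 140 to 200 CPM at CT21 and 76.7 to 134 CPM at CT9 without overlap, but its log2 fold change of 0.50 lay under the fold threshold. *Per2* had 45.7 to 93.8 CPM at CT21 and 56.1 to 70.2 CPM at CT9, and *Cry2*, *Clock*, *Bhlhe40*, *Wee1*, *Usp2*, *Rora*, *Nampt*, *Csnk1d* and *Csnk1e* had log2 fold changes from -0.22 to 0.19.

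The clock genes that were lower at CT21 without overlap were lower in control mice too. There, the log2 fold change was -5.31 for *Nr1d1*, -2.94 for *Nr1d2*, -4.32 for *Dbp*, -1.56 for *Hlf*, -5.04 for *Ciart*, -2.24 for *Per3* and -1.61 for *Bhlhe41*. *Tef* alone of the 10 called clock genes had a genotype difference that passed the test, with a log2 fold change of -2.16 in controls and a difference of 1.08 (95% interval 0.72 to 1.44). For *Nr1d1* the difference was 0.77 (-0.50 to 2.03), for *Dbp* 1.499 (0.67 to 2.33) and for *Ciart* 2.04 (0.91 to 3.18), with adjusted p from 0.274 to 0.999 in edgeR. For *Nr1d2*, *Hlf* and *Bhlhe41* the differences were 0.23 (-0.35 to 0.81), -0.16 (-0.74 to 0.41) and -0.71 (-1.90 to 0.49). The levels at CT9 did not overlap between the genotypes for some of these genes: *Nr1d1* had 107 to 187 CPM in control mice against at most 65.1 CPM in *Bmal1*iec-/- mice, and *Tef* had 224 to 311 CPM against at most 143 CPM. They overlapped for others, with 22.1 to 39.3 CPM for *Hlf* and 4.51 to 9.41 CPM for *Bhlhe41* in controls.

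Outside the clock, 7 of the 8 named genes with the smallest p among those higher at CT21 are given first, and the other, *Calr*, with its list. *Slc1a1* (chromosome 19, 28835049 to 28913960) encodes a transporter of glutamate and aspartate. It had 19.97, 15.8, 21.4 and 17.4 CPM at CT21 and 9.28, 5.70, 9.61 and 8.56 CPM at CT9, with no overlap and a log2 fold change of 1.15 ± 0.19 (SE, n = 4 mice per time; edgeR adjusted p = 0.00025). *Mogat2* (chromosome 7, 99219084 to 99238619) encodes an acyltransferase that makes diacylglycerol in enterocytes. It had 18.3, 8.32, 21.1 and 26.0 CPM at CT21 and 6.03, 4.50, 8.41 and 3.14 CPM at CT9, a log2 fold change of 1.71 ± 0.28 (SE, n = 4 mice per time). CT21 replicate 2 was the only CT21 mouse within the CT9 range for this gene. *Spon2* (chromosome 5, 33198184 to 33218455), which encodes a matrix protein, had 49.7, 67.1, 63.3 and 49.4 CPM at CT21 and 26.4, 21.3, 19.7 and 32.5 CPM at CT9. *Chst11*, which encodes a chondroitin sulfotransferase, had 37.3, 27.1, 52.8 and 40.3 CPM at CT21 and 16.01, 11.4, 26.9 and 10.8 CPM at CT9. Their log2 fold changes were 1.197 and 1.24, and neither overlapped between the times. *Tnfrsf12a*, the receptor for the cytokine TWEAK, had 22.6, 8.05, 15.0 and 14.0 CPM at CT21 and 4.41 to 7.21 CPM at CT9, a log2 fold change of 1.38. *Abhd3*, a phospholipase gene, had 20.4 to 27.8 CPM at CT21 and 9.30 to 16.3 CPM at CT9, and *Gprc5a*, a receptor gene induced by retinoic acid, had 79.4 to 112 CPM and 49.3 to 63.4 CPM. All 4 mice at CT21 exceeded all 4 at CT9 for each of these 3 genes. The differences between the genotypes for these 7 genes ran from -0.54 to 0.39 on the log2 scale, with adjusted p of 0.999 in edgeR.

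Among genes lower at CT21, *Gbe1* (chromosome 16, 70313949 to 70569716), which encodes the glycogen branching enzyme, had the smallest p of those with a symbol outside the clock list. It had 15.1, 25.2, 14.1 and 13.5 CPM at CT21 and 49.4, 39.3, 30.8 and 50.8 CPM at CT9, without overlap, a log2 fold change of -1.32 ± 0.19 (SE, n = 4 mice per time; edgeR adjusted p = 1.94e-05). Its log2 value fell by 1.49 in control mice. Without any one mouse it kept its call, and so did the 7 higher genes just described.

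**Figure D2:**
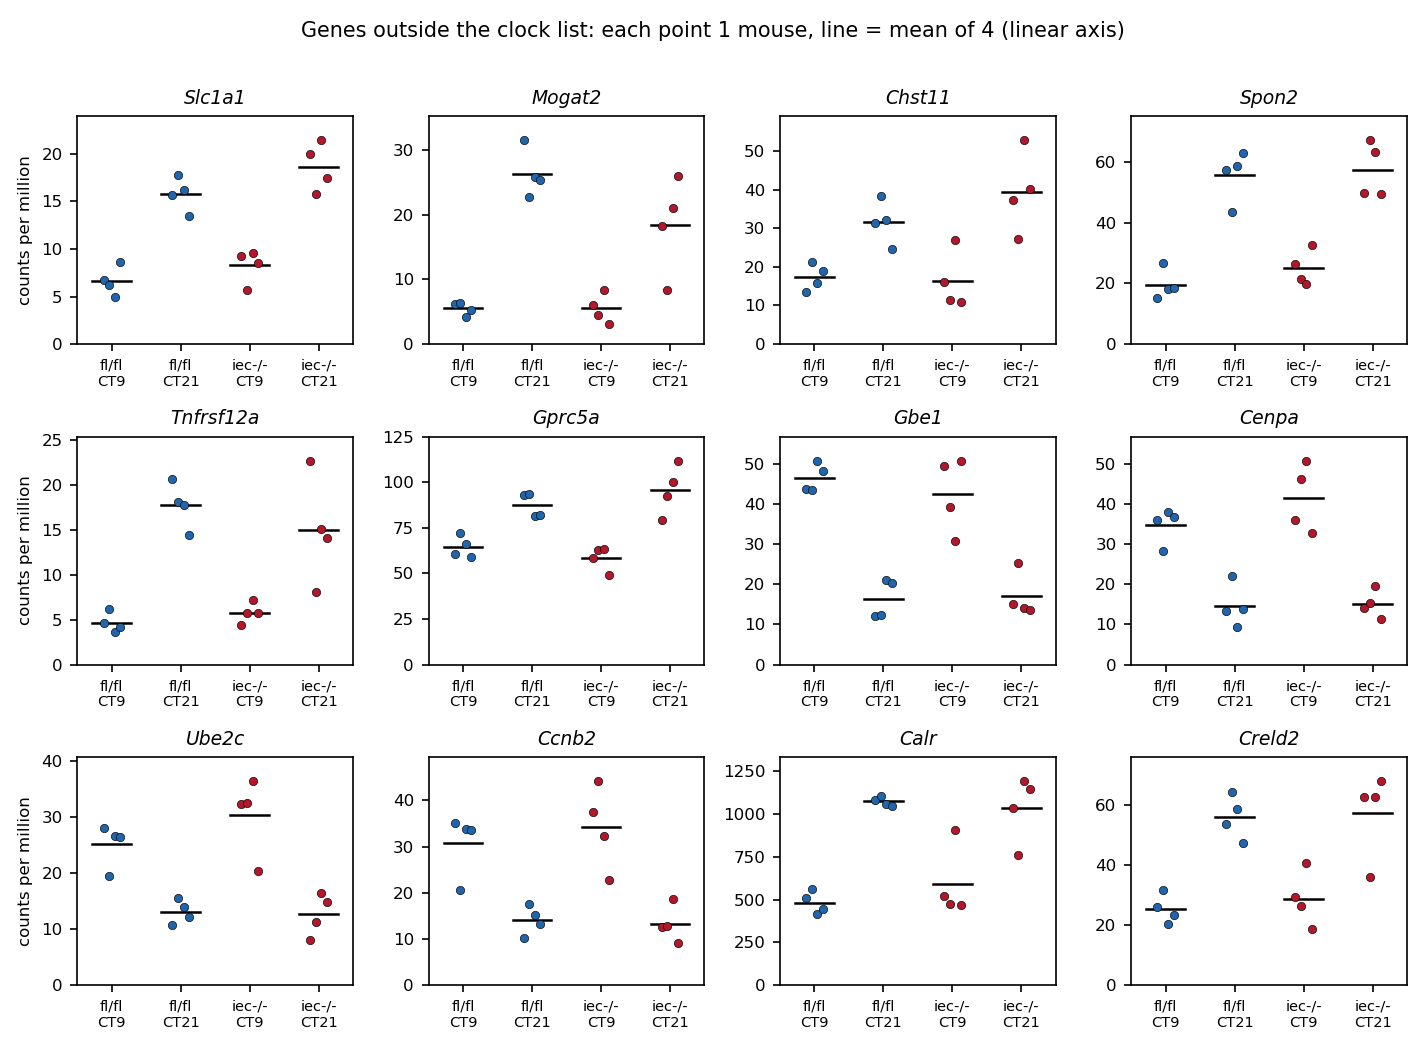
Levels of 12 genes outside the clock list in CPM (linear axis from 0) in each mouse (points), with the mean of 4 mice as a line, in *Bmal1*fl/fl (blue) and *Bmal1*iec-/- mice (red) at CT9 and CT21. In *Bmal1*iec-/- mice *Gbe1*, *Cenpa*, *Ube2c* and *Ccnb2* were lower and the other 8 higher at CT21, and CT9 replicate 3 had the highest *Calr* level of its group, at 905 CPM.

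Most genes of the mitosis list were lower at CT21. All 25 members of the list were tested, all 25 had a negative log2 fold change, and 19 had an adjusted p under 0.05, where 3.56% of all genes tested were lower at that threshold. Of these 18 also passed the fold threshold and were called lower, where 2.06% of all genes tested were, and 0 were called higher. The mice did not overlap for 12 of the 25, where 3.24% of all genes tested were lower without overlap. The median log2 fold change was -0.91, with a range from -1.47 to -0.35. *Cenpa* (chromosome 5, 30666777 to 30674830), the histone variant of centromeres, had 14.1, 15.3, 19.5 and 11.4 CPM at CT21 and 36.0, 46.2, 50.7 and 32.8 CPM at CT9, a log2 fold change of -1.47 ± 0.22 (SE, n = 4 mice per time; edgeR adjusted p = 4.77e-05). *Ube2c*, an enzyme of the anaphase-promoting complex pathway, had 8.04, 11.3, 16.3 and 14.8 CPM at CT21 and 32.3, 32.4, 36.3 and 20.2 CPM at CT9. *Ccnb2*, a mitotic cyclin, had 12.7, 12.9, 18.5 and 9.10 CPM at CT21 and 37.6, 44.1, 32.2 and 22.8 CPM at CT9. *Cdc25b*, the phosphatase that activates mitotic kinases, had 19.0, 9.66, 17.6 and 13.3 CPM at CT21 and 28.5, 30.0, 30.0 and 20.2 CPM at CT9. Each of these 4 genes separated the times completely, and the log2 fold changes of the last 3 were -1.28, -1.37 and -0.87. *Cdc20* and *Cenpf* fell by 1.36 each on the log2 scale, *Ccnb1* and *Cenpe* by 1.15 each, and *Tpx2* by 1.04. *Mki67*, *Top2a*, *Cdk1*, *Aurkb*, *Bub1*, *Kif11* and *Plk1* were not called, with log2 fold changes from -0.70 to -0.35. Without any one mouse 12 to 20 members were called, a fit to the 8 mice alone called 4, and a test against the fold threshold itself called 1.

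In control mice 13 members of the mitosis list were called lower, where 3.61% of all genes tested were. The median was -0.64, and 0 members had a genotype difference at an adjusted p under 0.05. Across the 6 circadian times, the mean in *Bmal1*iec-/- mice was highest at CT9 for 16 of the 25 genes and lowest at CT17 for 24. In controls it was highest at CT1 for 14 and at CT5 for 9. The *Bmal1*iec-/- mean at CT1 comes from 2 mice. At CT1, CT5 and CT9 the list's mean log2 level was 0.35 ± 0.29, 0.47 ± 0.17 and 0.54 ± 0.31 in *Bmal1*iec-/- mice (SD). In controls it was 0.63 ± 0.40, 0.67 ± 0.15 and 0.43 ± 0.23 (SD). Whether the time of the highest level differed between the genotypes was not tested. Of the genes' promoters in the table, 14 of 20 held the core of the cell cycle homology region (TTTGAA on either strand, a motif added after these data were seen), as did 20.2% of all promoters and 14.5% of those of genes tested. Those 20 are tested members, called or not, and among called members 9 of 14 held it. The promoter of *Ube2c* (chr2:164769679-164769978, GRCm38.p6, plus strand) is given as an example, with the motif on the opposite strand in capitals.
Ube2c: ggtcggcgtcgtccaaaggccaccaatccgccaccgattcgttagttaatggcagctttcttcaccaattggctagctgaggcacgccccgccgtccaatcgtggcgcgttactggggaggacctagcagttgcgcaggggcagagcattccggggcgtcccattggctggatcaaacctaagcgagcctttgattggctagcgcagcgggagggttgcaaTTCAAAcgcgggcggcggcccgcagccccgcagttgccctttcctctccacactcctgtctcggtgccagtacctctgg

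Few genes of DNA replication were called, all of them higher at CT21. Of 30 genes, 29 were tested and 26 had a positive log2 fold change, with a median of 0.30. At CT21 4 were called higher, where 1.15% of all genes tested were. The mice did not overlap for 2 members, where 3.67% of all genes tested were higher without overlap. *E2f1*, the transcription factor of S-phase entry, had 8.52, 8.05, 14.7 and 11.2 CPM at CT21 and 5.34, 4.20, 6.25 and 3.99 CPM at CT9, without overlap and with a log2 fold change of 1.07 ± 0.26 (SE, n = 4 mice per time; edgeR adjusted p = 0.00879). *Chaf1b*, a subunit of chromatin assembly factor 1, had 18.02, 13.1, 22.1 and 15.3 CPM at CT21 and 7.19, 7.80, 16.1 and 4.85 CPM at CT9. *Mcm6* and *Mcm2*, subunits of the replicative helicase, had log2 fold changes of 0.59 and 0.61. CT9 replicate 3 lay within the CT21 range of all 3 genes, at 16.1 CPM for *Chaf1b*, 87.0 CPM for *Mcm6* and 30.3 CPM for *Mcm2*. The count of 4 was 12 without CT9 replicate 3, 0 without CT21 replicate 3, and between 1 and 6 without each of the other mice. *E2f1* lost its call without CT21 replicate 3 alone. *Chaf1b*, *Mcm6* and *Mcm2* each lost theirs without CT21 replicates 3 or 4 or CT9 replicates 2 or 4, *Chaf1b* and *Mcm2* also without CT21 replicate 1, and *Chaf1b* and *Mcm6* without CT9 replicate 1. In control mice 17 members were called higher, where 2.79% of all genes tested were. Their list median was 0.61, and 0 members had a genotype difference at an adjusted p under 0.05. The mean of *Bmal1*iec-/- mice was highest at CT1, where it comes from 2 mice, for 21 of the 29 genes and at CT21 for 8, and lowest at CT13 for 25.

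Some chaperones and foldases of the endoplasmic reticulum were higher at CT21. Of 26 genes 25 were tested, and 16 had an adjusted p under 0.05 and a positive log2 fold change, where 3.68% of all genes tested did. Of these, 8 also passed the fold threshold, where 1.15% of all genes tested were called higher. The mice did not overlap for 1 of the 25, where 3.67% of all genes tested were higher without overlap. The median log2 fold change was 0.46. *Calr* (chromosome 8, 84841850 to 84846934), the calcium-binding chaperone calreticulin, had 1036, 759, 1191 and 1148 CPM at CT21 and 522, 476.2, 905 and 470.5 CPM at CT9, a log2 fold change of 0.80 ± 0.14 (SE, n = 4 mice per time; edgeR adjusted p = 0.000408). *Creld2*, a disulfide isomerase gene induced by endoplasmic reticulum stress, had 62.8, 35.9, 62.7 and 67.9 CPM at CT21 and 29.5, 26.4, 40.6 and 18.5 CPM at CT9. In both genes CT9 replicate 3 was the highest of its group and CT21 replicate 2 the lowest of its own, and these mice made the groups overlap. *Asns*, asparagine synthetase, had 59.6 to 93.4 CPM at CT21 and 37.8 to 70.4 CPM at CT9, a log2 fold change of 0.67, and *Pdia4*, a protein disulfide isomerase, had 132 to 220 CPM and 95.4 to 164 CPM, a log2 fold change of 0.66. *Sdf2l1*, *Hspa5*, *Hyou1* and *Manf* were called with log2 fold changes of 0.77, 0.72, 0.70 and 0.60. *Atf4*, *Ddit3*, *Herpud1* and *Dnajb9*, which take part in the response to unfolded proteins, had log2 fold changes of -0.01, -0.31, 0.03 and 0.03 and were not called. In controls 10 members were called higher, where 2.79% of all genes tested were. The median there was 0.46, and 0 members had a genotype difference at an adjusted p under 0.05. The count of 8 was 12 without CT9 replicate 3, 10 without CT21 replicate 2, 2 without CT9 replicate 2, and 3 to 5 without each of the other 5 mice. None of the list was called in the fit to the 8 mice alone. *Asns* lost its call without CT21 replicate 3 or CT9 replicate 2, and *Pdia4* without CT21 replicate 4 or CT9 replicate 2.

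The endoplasmic reticulum stress element (CCAAT, 9 bases of any kind, then CCACG, on either strand, a motif added after these data were seen) was in the promoters of 8 of the 20 list members found in the table, *Calr*, *Creld2* and *Hspa5* among them. It was in 0.137% of all promoters and 0.171% of those of genes tested. Of the 6 called list members found in the table, 3 held it. The promoters of *Calr* (chr8:84846882-84847181, minus strand) and *Creld2* (chr15:88819396-88819695, plus strand) are given, with the element, read on the opposite strand, in capitals.
Calr: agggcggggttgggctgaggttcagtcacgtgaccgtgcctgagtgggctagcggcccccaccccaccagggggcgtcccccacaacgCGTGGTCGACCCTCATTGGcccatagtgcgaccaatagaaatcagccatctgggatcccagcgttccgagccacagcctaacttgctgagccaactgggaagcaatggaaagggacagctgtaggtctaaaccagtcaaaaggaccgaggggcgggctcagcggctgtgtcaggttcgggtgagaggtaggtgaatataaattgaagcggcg
Creld2: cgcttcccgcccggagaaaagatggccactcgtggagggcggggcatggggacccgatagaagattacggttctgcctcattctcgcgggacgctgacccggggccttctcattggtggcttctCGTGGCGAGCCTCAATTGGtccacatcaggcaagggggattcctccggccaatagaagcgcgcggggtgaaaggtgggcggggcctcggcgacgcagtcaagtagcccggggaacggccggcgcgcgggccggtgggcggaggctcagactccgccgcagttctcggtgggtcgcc

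**Figure D3:**
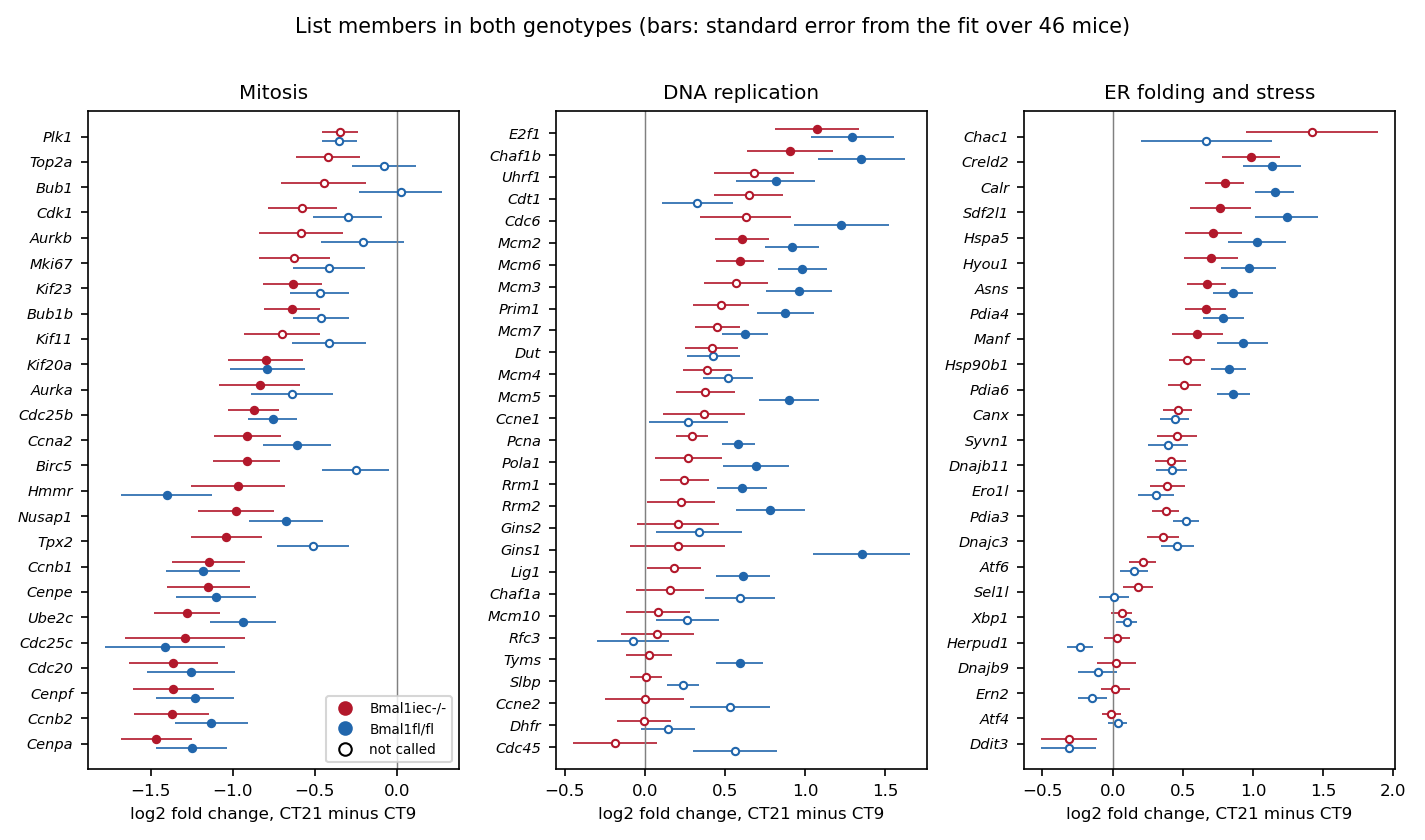
Log2 fold changes of CT21 over CT9 for every tested member of 3 lists in *Bmal1*iec-/- (red) and *Bmal1*fl/fl mice (blue), with standard errors from the fit over 46 mice as bars and open symbols for genes not called. In *Bmal1*iec-/- mice all 25 mitosis genes lay below 0, 26 of 29 replication genes above 0 and 23 of 25 genes of the endoplasmic reticulum above 0.

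Heat shock genes, which follow body temperature in many tissues, had a median log2 fold change of 0.37. Of 27 tested, 1 was called higher at CT21, *Hsp90aa1*, where 1.15% of all genes tested were. This cytosolic chaperone had 334, 208, 357 and 409 CPM at CT21 and 172, 150, 271 and 222 CPM at CT9, a log2 fold change of 0.68 (edgeR adjusted p = 0.044). The call was lost without any one of CT21 replicates 1, 3 and 4 and CT9 replicates 1, 2 and 4. *Hspa1a* and *Hspa1b* had log2 fold changes of 1.19 and 0.79 that did not pass the test. Of 5 cold-inducible RNA-binding genes, *Rbm3* was called lower, with 106, 153, 117 and 85.0 CPM at CT21 and 179, 185, 213 and 191 CPM at CT9. The times did not overlap, and its log2 value fell by 0.74 (edgeR adjusted p = 0.000328). Of all genes tested, 2.06% were called lower and 3.24% were lower without overlap. *Cirbp* had a log2 fold change of -0.55 and was not called.

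In energy metabolism, single genes were called rather than whole lists. *Angptl4*, a PPAR target that inhibits lipoprotein lipase, had 24.6, 5.36, 18.9 and 15.6 CPM at CT21 and 3.71, 5.40, 10.3 and 5.99 CPM at CT9, a log2 fold change of 1.33. CT21 replicate 2 lay within the CT9 range, and the call was lost without CT21 replicate 1 or CT9 replicates 1 or 2. Among 20 glycolysis genes, *Pdk1*, which shuts off pyruvate dehydrogenase, had 37.7 to 48.3 CPM at CT21 and 59.8 to 77.1 CPM at CT9. *Pfkfb3*, which makes the activator of phosphofructokinase, had 8.58 to 10.6 CPM at CT21 and 16.3 to 20.7 CPM at CT9. Both were called lower, by 0.71 and 0.92 on the log2 scale, without overlap and without losing the call when any one mouse was left out. Of all genes tested, 1.15% were called higher and 2.06% lower, and 3.24% were lower without overlap. The median of the glycolysis list was 0.08, with a positive log2 fold change for 12 of the 20. *Fabp2*, the intestinal fatty acid-binding protein, fell by 0.59 on the log2 scale, with the call lost without CT21 replicates 1 or 3 or CT9 replicates 2 or 4. Of 17 genes of fatty acid synthesis and 25 of sterol synthesis, 0 were called, with medians of 0.18 and -0.01. In control mice 5 of the 17 were called higher, where 2.79% of all genes tested were, with a median of 0.51. There, 0 genotype differences passed the test.

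Transporters and enzymes of xenobiotic handling gave 4 calls among 31 genes, all lower at CT21, where 2.06% of all genes tested were called lower. The mice did not overlap for 1 of the 31, which was lower, and 3.24% of all genes tested were lower without overlap. *Cyp3a13*, a cytochrome P450, had 156, 198, 96.3 and 119 CPM at CT21 and 228, 288, 140 and 363 CPM at CT9, a log2 fold change of -0.83 that held without each mouse. *Ces1g*, *Gsta1* and *Slc7a9* had log2 fold changes of -0.61, -0.88 and -0.98. *Ces1g* lost its call without CT21 replicates 1 or 4 or CT9 replicate 2, *Gsta1* without CT21 replicates 1, 3 or 4 or CT9 replicates 2 or 3, and *Slc7a9* without CT21 replicates 1, 3 or 4 or CT9 replicates 2 or 4. *Cyp3a13*, *Ces1g* and *Gsta1* belong to families of similar genes. The study counted only reads that met a mapping quality threshold, so reads shared by family members may be missing from these counts. The sum over small intestine markers was lower at CT21 in the same mice and in control mice, as given above. Its part in these differences was not tested.

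Mucus, defence and immune lists gave few calls. *Muc4*, a membrane mucin, had 235, 219, 225 and 255 CPM at CT21 and 166, 140, 141 and 164 CPM at CT9, without overlap and with a log2 fold change of 0.61, and the call was lost without CT21 replicate 4 or CT9 replicates 2 or 3. Of 25 interferon-stimulated genes tested, 1 was called higher and 2 lower, against 2 and 11 in control mice. Over all genes tested, 1.15% were called higher and 2.06% lower, against 2.79% and 3.61% in control mice. Of the 25, 0 had a genotype difference that passed the test. *Mx1*, an antiviral GTPase gene, had 23.6, 16.4, 15.3 and 22.1 CPM at CT21 and 12.3, 8.10, 9.85 and 8.56 CPM at CT9. The times did not overlap, and the log2 fold change of 0.99 ± 0.21 (SE, n = 4 mice per time; edgeR adjusted p = 0.00348) kept its call without each mouse. The *Mx1* call was lost in the fit to the 8 mice alone. *Gbp3* and *Ifit1* were called lower, by 0.95 and 0.90 on the log2 scale. Both calls were lost without any one of CT21 replicates 1, 3 and 4 and CT9 replicates 1 and 2, that of *Ifit1* also without CT9 replicate 4. *Sprr2a3*, of a family with near-identical members, fell by 0.79 on the log2 scale and lost its call without any of the same 5 mice as *Gbp3*. *Cd44*, a receptor for hyaluronan listed with stem cell and Wnt genes, had 258, 210, 304 and 288 CPM at CT21 and 168, 115, 210 and 163 CPM at CT9. Its log2 fold change was 0.69, and the call was lost without CT9 replicate 2. No member was called in *Bmal1*iec-/- mice among 18 immediate early genes, 30 of ribosome biogenesis, 25 of salt and water absorption, 8 of MHC class II, 21 of inflammatory signalling and 11 of enteroendocrine cells, with medians from -0.22 to 0.13.

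Over all genes, the late night to late day difference in *Bmal1*iec-/- mice was set against that in control mice, which are other animals. Mouse numbers were split by time in both genotypes, so this comparison cannot tell circadian time apart from any cohort. Of the 483 genes called in *Bmal1*iec-/- mice, 266 were called in controls too, 265 of them in the same direction, which is 54.9% of the former and 27.5% of the latter set. The sign was the same for 467 of the 483 (96.7%), against 73.5% of all genes tested. Genes called in *Bmal1*iec-/- mice had a median absolute log2 fold change of 0.83 there and 0.76 in controls, and genes called in controls had 0.50 in *Bmal1*iec-/- mice and 0.85 in controls. Each set's own median is raised because the set was chosen on it.

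The difference between the genotypes itself passed an adjusted p of 0.05 for 21 genes, 6 with a positive and 15 with a negative difference. Of these, 15 were called in control mice only, 2 in both genotypes, 4 in neither and 0 in *Bmal1*iec-/- mice only. So of the 217 genes called in *Bmal1*iec-/- but not in control mice, none was shown to differ between them. *Cldn8*, a claudin of tight junctions, had 156 to 180 CPM at CT21 and 133 to 198 CPM at CT9 in *Bmal1*iec-/- mice, and 53.2 to 76.9 CPM against 9.41 to 17.1 CPM in controls. The difference was -2.16 (95% interval -2.64 to -1.68), and every *Bmal1*iec-/- mouse had more than any control mouse at either time. *Tns4*, an adaptor of focal adhesions, had 142 to 199 CPM at CT21 and 134 to 172 CPM at CT9 in *Bmal1*iec-/- mice, and 123 to 204 CPM against 283 to 348 CPM in controls. *Anxa7*, *Eps8l3* and *Slc20a1* were likewise lower at CT21 in controls, by 0.84, 0.55 and 0.55 on the log2 scale, and had log2 fold changes of -0.20, 0.15 and 0.19 in *Bmal1*iec-/- mice. The differences were 0.98 (0.67 to 1.29), 0.63 (0.42 to 0.84), 0.69 (0.44 to 0.94) and 0.74 (0.46 to 1.03) for these 4 genes. *Ypel2*, named here after its values were seen, was called in opposite directions, with log2 fold changes of -0.60 in *Bmal1*iec-/- and 0.65 in control mice.

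**Figure D4:**
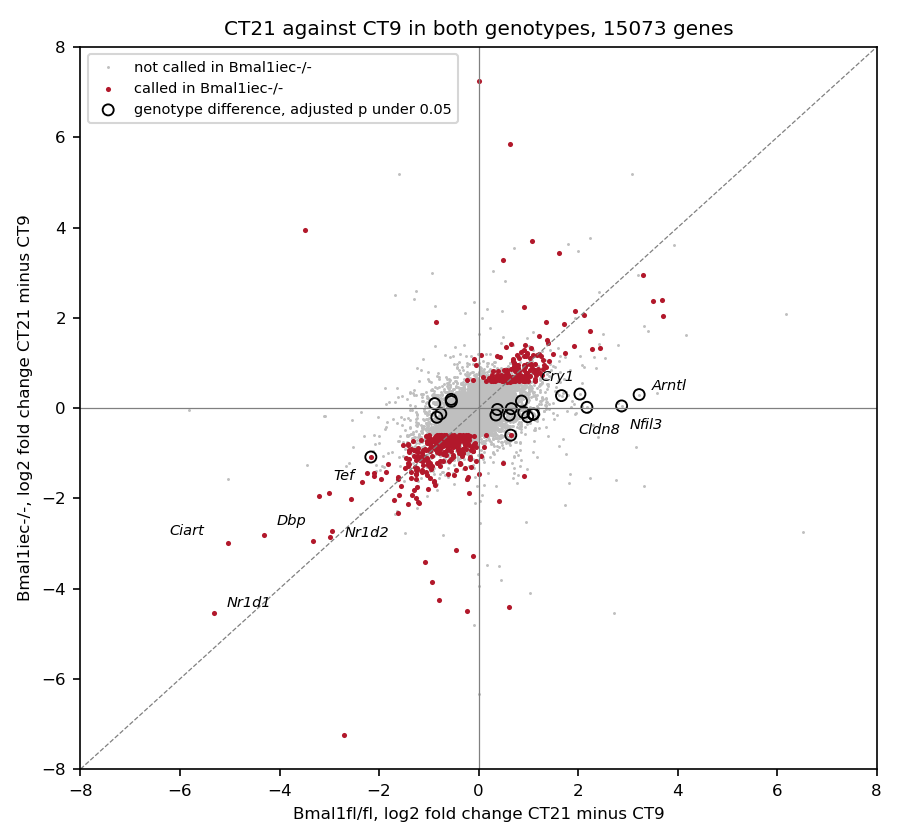
Log2 fold change of CT21 over CT9 in *Bmal1*fl/fl mice (x axis) and in *Bmal1*iec-/- mice (y axis) for 15073 genes, with the 483 genes called in *Bmal1*iec-/- mice in red, the 21 genes with a genotype difference circled, and equality as a dashed line. *Nr1d1* and *Nr1d2* lie near the dashed line, whereas *Arntl*, *Nfil3*, *Cry1* and *Cldn8* lie near 0 on the y axis and above 1.6 on the x axis.

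Other *Bmal1*iec-/- mice, killed 4 h earlier, at CT17 and CT5, gave a further view of night against day. Between CT17 and CT5, 857 genes (5.69%) were called, 318 (2.11%) higher and 539 (3.58%) lower. Of the 483 genes called between CT21 and CT9, 200 were called there too, 198 in the same direction, which is 41.0% of the former and 23.1% of the latter set, and 91.7% had the same sign, against 69.5% of all genes. Mitosis genes were again lower at night, 24 of 25 called with a median of -1.12. Heat shock genes were higher, 18 of 27 called with a median of 0.72, and 11 of 25 endoplasmic reticulum genes were called higher. Replication genes gave 1 call and a median of 0.06. In the clock list 2 genes were called higher, *Per2* by 1.42 and *Usp2* by 1.001 on the log2 scale, and 3 lower, *Nr1d1*, *Nr1d2* and *Dbp*. *Hlf* and *Tef*, lower at CT21 than at CT9, had log2 fold changes of 0.01 and 0.00 between CT17 and CT5. Whether a gene's difference is unlike between these pairs of times was not tested.

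**Figure D5:**
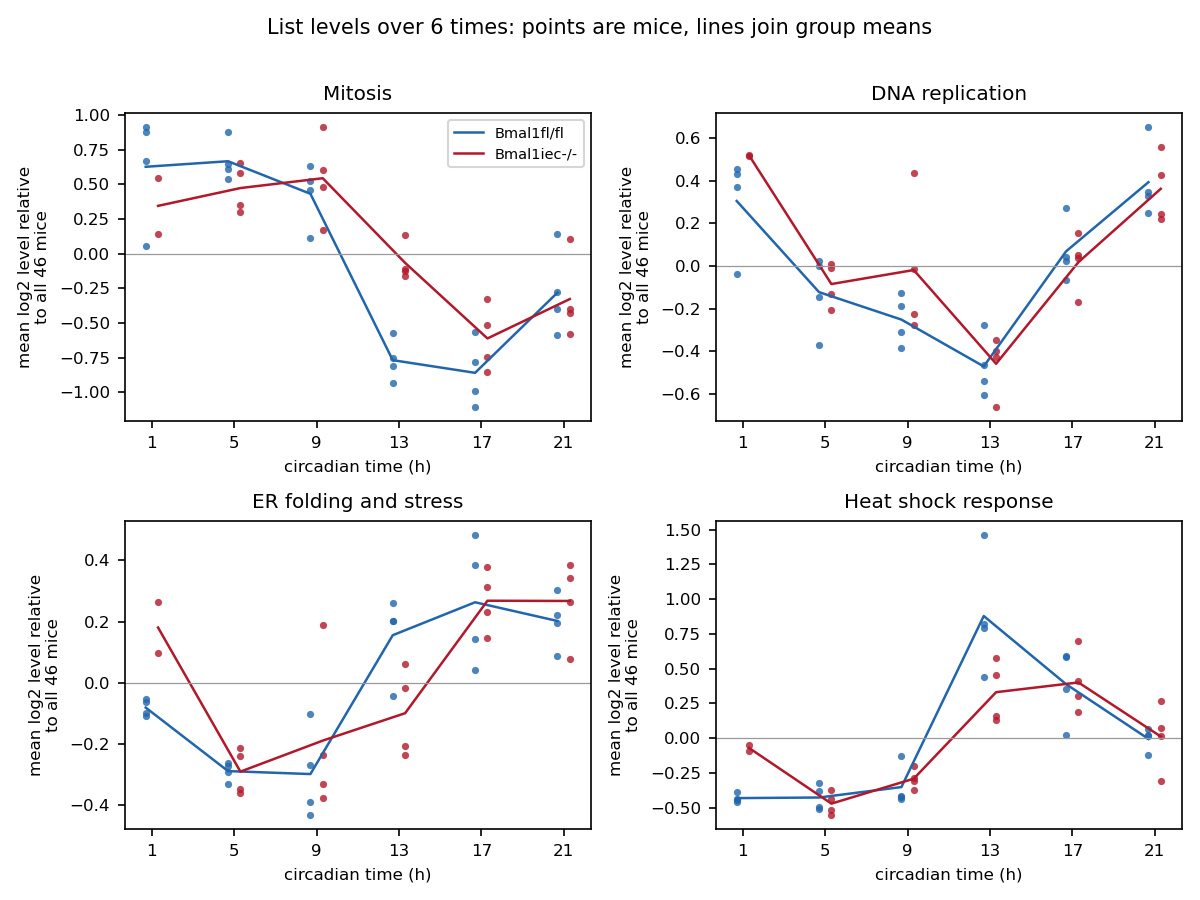
Mean log2 level of the members of 4 lists in each mouse relative to all 46 mice (points), by circadian time in hours, with lines through the group means of *Bmal1*fl/fl (blue) and *Bmal1*iec-/- mice (red), of 4 mice each but 2 *Bmal1*iec-/- mice at CT1. In *Bmal1*iec-/- mice the mitosis level was 0.54 ± 0.31 at CT9 and -0.33 ± 0.30 at CT21, and the replication level -0.02 ± 0.32 and 0.36 ± 0.16 (SD, n = 4).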

How the data were processed

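Colon RNA of 48 mice was sequenced, in 12 groups of 4, of which *Bmal1*iec-/- CT1 entered with 2 mice. The deposited values are raw read counts per gene made by the authors, who trimmed reads with Trimmomatic (0.39), aligned them to mm10 with STAR (2.7.5c) and counted reads on exons with featureCounts (1.4.6), per the submitters' processing notes. Strand setting and annotation release are not given in the sources used here.

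Counts were tested with edgeR (4.0.16, R 4.3.3), with TMM scaling, its default filter on low counts and the quasi-likelihood test, in 1 fit over 46 mice, without the *Bmal1*iec-/- CT1 mice that the study left out. Of 55401 genes, 15073 were tested, 10 of them without a symbol in GENCODE and 479 matched to it through another version of their identifier. Adjusted p-values are Benjamini-Hochberg values over all genes tested. The difference between genotypes was an interaction term in the same fit. Total counts ran from 3144997 to 4785844 per mouse, and totals set the precision of low levels. All mice are separate animals, but the labels do not say which shared a litter or cage.

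Genes named were the tested members of the clock list, the 8 with the smallest p in each direction, up to 4 called members of each pathway list, and the 5 with the smallest p in each direction of the genotype difference. Some of these are not reported here. Members and lists were chosen with earlier results of these data known. Alternatives were RLE factors or none, DESeq2 (1.42.0), limma (3.58.1) voom, no filter, all 48 mice, the mice compared only, other thresholds, and leaving out each mouse.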

Additional observations from a re-analysis of the deposited data

Results flagged for a closer look

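In *Bmal1*iec-/- mice single animals stood apart within their group of 4 for 10 named genes. At CT21, replicate 2 had 79.7 CPM for *Npas2* against 61.4 to 63.3 CPM in the other mice, 25.2 CPM for *Gbe1* against 13.5 to 15.1 CPM, and 35.9 CPM for *Creld2* against 62.7 to 67.9 CPM. CT21 replicate 1 had 199.9 CPM for *Por* against 140 to 149 CPM. At CT9, replicate 3 had 59.3 CPM for *Cry1* against 69.4 to 71.0 CPM, 905 CPM for *Calr* against 470.5 to 522 CPM, and 70.4 CPM for *Asns* against 37.8 to 42.2 CPM. CT9 replicate 4 had 41.9 CPM for *Nr1d2* against 59.6 to 62.4 CPM, 20.2 CPM for *Cdc25b* against 28.5 to 30.0 CPM, and 6.84 CPM for *Tspan4* against 16.01 to 17.1 CPM. In 3 lists the summed level of a CT9 mouse stood apart in the same way. Replicate 2 had 2139 CPM for sterol synthesis, and replicate 3 had 6363 CPM for the endoplasmic reticulum list and 19473 CPM for salt and water absorption. In all, 13 of 208 groups held such a mouse, and chance gives about 1 in 20.

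For 10 named genes the log2 difference of CT21 over CT9 was unlike between the genotypes at an edgeR adjusted p under 0.05. The difference of *Bmal1*iec-/- from control mice was negative for *Arntl* (-2.93), *Nfil3* (-2.83), *Cldn8* (-2.16), *Cry1* (-1.39) and *Npas2* (-1.24). It was positive for *Tef* (1.08), *Tns4* (0.98), *Slc20a1* (0.74), *Eps8l3* (0.69) and *Anxa7* (0.63).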

How the results depend on the processing

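Of the 483 genes called in *Bmal1*iec-/- mice, the count moved to 37 in a fit to the mice of the comparison only, to 13 with a test against the fold threshold itself (glmTreat) and to 1090 with no fold threshold. The share lower at CT21 was 64.2%, 78.4%, 76.9% and 49.2% in these 4 settings. Leaving out single mice gave 231 to 804. The control count of 965 became 78 with glmTreat and 2258 with no fold threshold. The 21 genotype differences became 152 with no filter on low counts and 10 in a fit to the 16 mice compared. The cause was not tested. RLE factors, DESeq2 and no filter gave 487, 485 and 623 genes in *Bmal1*iec-/- mice, and no factors, voom and a fit to all 48 mice gave fewer than 483, within 1.5 times. The CT17 to CT5 comparison was not recomputed under alternatives.

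Of 46 named genes called in *Bmal1*iec-/- mice, 10 kept their call under all 17 alternatives (*Bhlhe41*, *Cenpa*, *Ciart*, *Dbp*, *Gbe1*, *Hlf*, *Nr1d1*, *Nr1d2*, *Per3* and *Tef*), 36 lost it under at least 1, and 0 reversed. Among uncalled named genes, *Per2*, *Cldn8*, *Nampt*, *Usp2*, *Nfil3* and *Tns4* changed sign under at least 1 alternative. No paired analysis was possible because the labels give no replicate numbers that are shared between groups. At these depths, 3 counts, the limit that a count of 0 allows, were under 1 CPM in every mouse, for counting error only.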

Other observations

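Variable genes of immunoglobulins are part of the counts over all genes above but were not described there. Of 160 tested, 13 were called between CT21 and CT9 in *Bmal1*iec-/- mice, 7 higher and 6 lower, against 1.15% called higher and 2.06% called lower over all genes tested. For these 13, 1 mouse held 34% to 93% of the reads of all 8 mice after scaling, and for the gene at 93%, with a log2 fold change of 3.94, that mouse was CT21 replicate 1.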
